A study of Mus musculus with 9 samples.

Results

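The genes described here are 10 genes of the epithelial-mesenchymal transition (EMT): the transcription factor genes Prrx1, Twist1, Twist2, Snai1, Snai2, Zeb1 and Zeb2, the cadherin genes Cdh2 and Cdh11, and Vim, which encodes the intermediate filament protein vimentin. They were chosen by gene symbol, and all 10 were found once each among the 49671 genes of the deposited count table. Poly(A) RNA was sequenced in 9 libraries from untreated Panc02 cells, which derive from a pancreatic ductal adenocarcinoma of the mouse, to ask how depletion of VPAC2 changes gene expression. VPAC2, encoded by Vipr2, is a receptor for vasoactive intestinal peptide. KO_1E7 is a single clone with the genotype label VPAC2 knock out (3 libraries). CRISPR_1G2 is a single clone with the genotype label CRISPR-wild type (3 libraries). The parental group is the unedited line, labelled wild type (3 libraries). The series' design text counts both clones as knockout cells, which differs from the label of CRISPR_1G2, and the labels were followed. Each clone is 1 line measured again, so loss of VPAC2 and other properties of clone 1E7 cannot be told apart. The labels name no separate cultures behind the 3 libraries of a group, so every p-value refers to the spread of these libraries alone, and that spread may be technical.

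EMT is the change in which epithelial cells give up junctions and apical-basal polarity and take on a motile, spindle-shaped state. Snail (Snai1), Slug (Snai2) and the ZEB proteins are zinc finger repressors that bind E-box DNA, the best known target being the E-cadherin gene Cdh1. The Twist proteins are basic helix-loop-helix factors that pair with E-proteins, and Prrx1 is a paired-type homeodomain factor of the mesenchyme. N-cadherin (Cdh2) and cadherin-11 (Cdh11) are adhesion proteins of mesenchymal cells, and vimentin replaces keratin as the main filament there. In pancreatic cancer, EMT has been studied in connection with dissemination and drug resistance.

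Prrx1 and Twist2 were higher in KO_1E7 than in both other groups, and Cdh2 was lower in KO_1E7 than in CRISPR_1G2. The promoter windows of both factor genes that rose are shown because these genes moved together in KO_1E7 and lie on the same chromosome. They are the bases before the gene start, read 5′ to 3′ on the gene's own strand from RefSeq's GRCm38.p6 annotation: chr1:163313711-163313900, minus strand, for Prrx1 (190 bases) and chr1:91801211-91801460, plus strand, for Twist2 (250 bases). The Prrx1 window ends before the gene start of the deposited table, which lies upstream of that in RefSeq. Capitals mark TAATTA, a core that homeodomain proteins bind, and CCAAT or its reverse complement ATTGG.
Prrx1: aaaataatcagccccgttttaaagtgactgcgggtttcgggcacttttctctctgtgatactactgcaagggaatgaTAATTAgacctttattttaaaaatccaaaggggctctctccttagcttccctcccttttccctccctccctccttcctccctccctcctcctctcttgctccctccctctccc
Twist2: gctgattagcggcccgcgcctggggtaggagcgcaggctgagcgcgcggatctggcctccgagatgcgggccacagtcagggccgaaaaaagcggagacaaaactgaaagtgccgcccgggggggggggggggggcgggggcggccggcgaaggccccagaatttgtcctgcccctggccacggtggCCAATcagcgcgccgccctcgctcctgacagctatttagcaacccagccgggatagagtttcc
The windows differed in base composition, with 48.9% G and C in that of Prrx1 and 68.8% in that of Twist2. The E-box letters CANNTG, a palindrome, occurred 0 times in either window, whereas 57.3% of the 32851 RefSeq promoter windows held them in their first 190 bases and 66.2% in their first 250. The letters TAATTA, also a palindrome, occurred once in the Prrx1 window, and 4.02% of windows of that length held them. CCAAT, searched on both strands, occurred once in the Twist2 window, and 33.8% of windows of that length held it. TAATTA and CCAAT were chosen after the sequences had been read. These letters are a description of the windows and say nothing of which factor binds there.

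Per library, 27898705 to 51878289 reads were counted on genes. Vipr2, the edited gene, had 1 or 2 counts in each KO_1E7 library, 1 to 13 in CRISPR_1G2 and 3 to 12 in parental, which is too low to check the labels. The third library of each group carries the word NSG in its file name where the others carry a date, and the labels do not explain it. By these dates KO_1E7 1 goes with parental 1 and CRISPR_1G2 1 with parental 2, and no other dated libraries share one. Parental 3 and CRISPR_1G2 3, both NSG-named, stood apart from their own groups: the chi-square per gene against the other libraries of the group was 604 and 670 for parental 3, where parental 1 and 2 gave 43.7, and 228 and 233 for CRISPR_1G2 3, where CRISPR_1G2 1 and 2 gave 7.90. In parental 3, 15.3% of gene counts lay on CT010467.1 alone, where all other libraries had at most 1.04%. All 9 markers of ductal adenocarcinoma cells, among them Krt8, Krt18 and Krt19, were detected in every library, with summed CPM (counts scaled to a common library size) of 1287 to 2108 in KO_1E7, 896 to 2113 in CRISPR_1G2 and 1360 to 2052 in parental. Of 8 fibroblast markers, Thy1, Fap, Dcn, Lum and Pdpn had at most 21 counts in any group. In KO_1E7 the counts of Dcn (21) and Lum (10) all came from KO_1E7 1. The summed CPM of the fibroblast markers was 63.1 to 123 in KO_1E7, 29.7 to 49.5 in CRISPR_1G2 and 58.9 to 75.2 in parental, nearly all from Pdgfrb, Pdgfra and Col6a3. Immune markers summed to 54.5 to 63.4, 50.6 to 88.5 and 30.6 to 53.9 CPM in KO_1E7, CRISPR_1G2 and parental, and endothelial markers to at most 1.40 CPM in any library. Cd14, at 20.1 to 62.4 CPM, was the largest part of the immune sums. Lyz2 stood at 0.525 and 2.39 CPM in parental 2 and 3 and at 10.6 to 18.8 CPM in all other libraries. Ptprc had 1 and 3 counts in parental 2 and 3 and 63 to 135 in all other libraries. The part of these levels in the results was not tested. Of the 9 ductal markers, 6 also stand in the list of epithelial genes described further on.

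**Figure D1:**
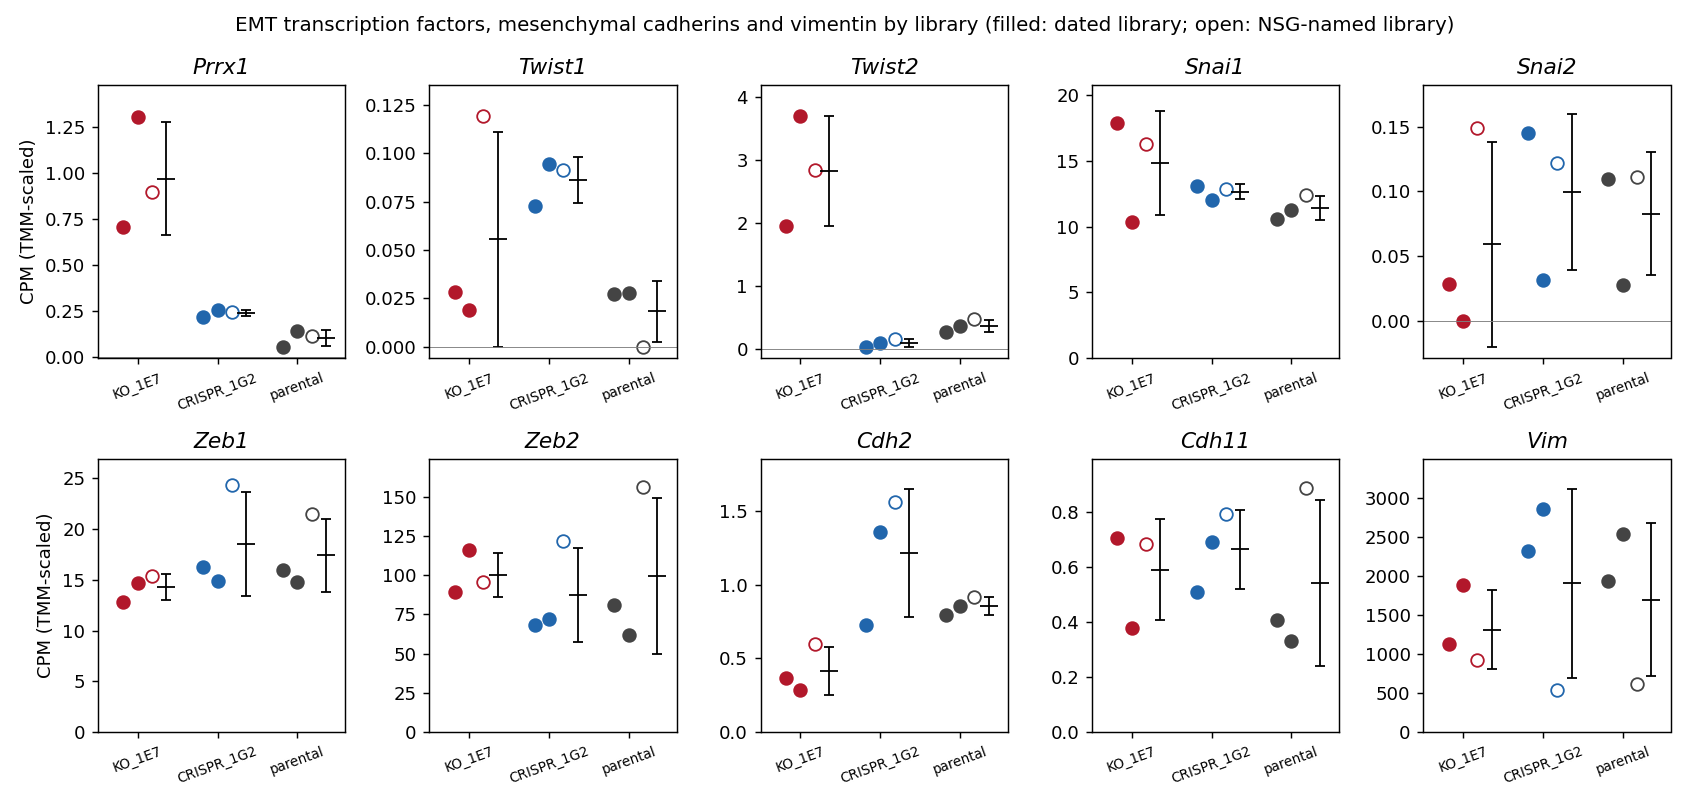
CPM on TMM-scaled library sizes (vertical axis, including 0, a scale of its own for each gene) of the 10 genes in the 9 libraries, by group. Points are libraries (filled dated, open NSG-named) and bars are mean ± SD of 3 libraries. The 3 KO_1E7 libraries lie above all others for Prrx1 and Twist2, and the NSG-named libraries of CRISPR_1G2 and parental are the lowest for Vim.

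Levels between genes were compared as CPM per kilobase of exon. Vim was far above the others, at 277 ± 107 CPM per kilobase in KO_1E7, 401 ± 255 in CRISPR_1G2 and 357 ± 206 in parental (SD, n = 3 each, here and below). Snai1 came next, at 9.16 ± 2.44, 7.81 ± 0.34 and 7.04 ± 0.56 CPM per kilobase in KO_1E7, CRISPR_1G2 and parental. It was followed by Zeb2 at 5.02 ± 0.70, 4.39 ± 1.499 and 4.998 ± 2.49 and by Zeb1 at 1.41 ± 0.13, 1.83 ± 0.51 and 1.72 ± 0.36 in the same order of groups. In KO_1E7 the libraries of Snai1, Zeb2 and Zeb1 did not overlap on this scale, whereas in parental those of Snai1 and Zeb2 did. Twist2 took the fifth place in KO_1E7 with 0.891 ± 0.275 CPM per kilobase, against 0.0298 ± 0.0183 in CRISPR_1G2 and 0.116 ± 0.032 in parental. The other genes, namely Cdh2, Cdh11, Prrx1, Twist1 and Snai2, lay at or below 0.150 CPM per kilobase on average in every group and overlapped with one another in part. Zeb2 has a long exon model (19942 bases), and an exon model longer than the transcript in use lowers the value per kilobase.

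**Figure D2:**
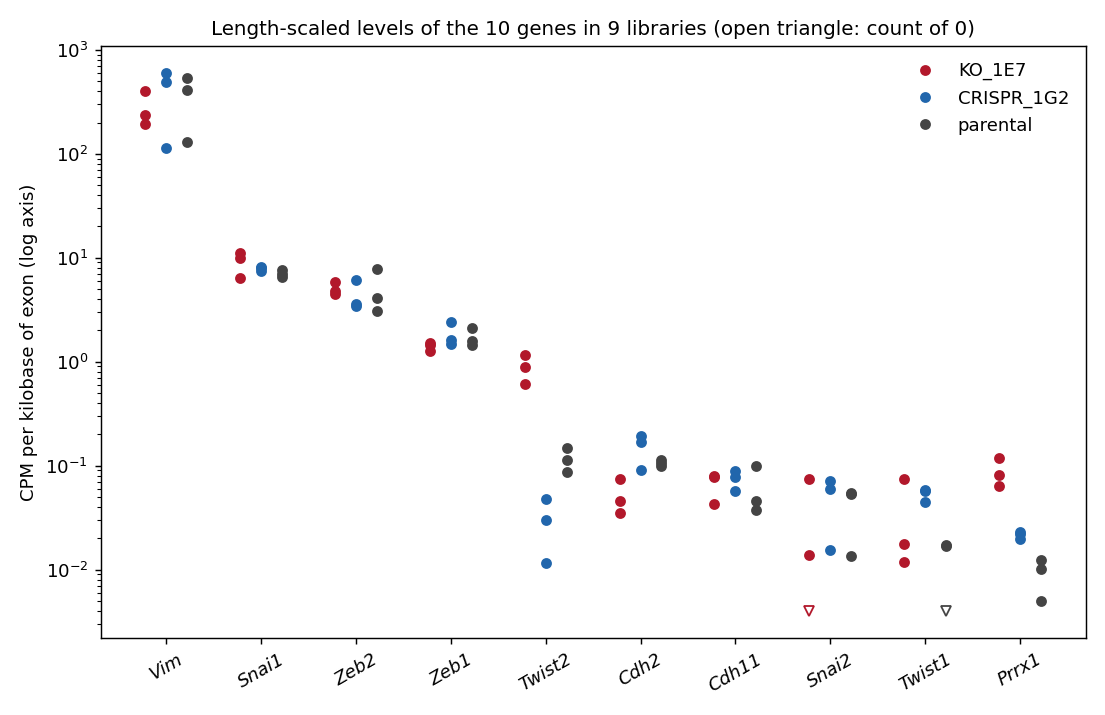
Levels of the 10 genes as CPM per kilobase of exon on a log axis, 1 point per library, genes ordered by their mean in parental. Vim lies above all factor genes in every library, and open triangles at the lower edge mark the Snai2 count of 0 in KO_1E7 2 and the Twist1 count of 0 in parental 3.

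Of the 10 genes, 8 passed the filter on low counts and were tested among 15766 genes. Twist1 and Snai2 did not pass it. In KO_1E7 against parental, 2 of the 8 were called higher and 0 lower at an adjusted p of 0.05 (quasi-likelihood test of edgeR, Benjamini-Hochberg over all genes tested), where 5.42% of all genes tested were called, 2.54% as higher and 2.87% as lower. In KO_1E7 against CRISPR_1G2, 2 were called higher and 1 lower, where 12.7% of all genes were called, 5.71% higher and 7.03% lower. In CRISPR_1G2 against parental, 0 were called by edgeR or by DESeq2 and 2 had an unadjusted p below 0.05 in edgeR, where 0.254% of all genes were called, all as lower. Over all genes tested, an unadjusted edgeR p below 0.05 was found for 23.7% in KO_1E7 against parental, 29.0% in KO_1E7 against CRISPR_1G2 and 7.73% in CRISPR_1G2 against parental, and DESeq2 called 15.0%, 21.4% and 1.49%, shares against which the same counts in the lists are to be read. Comparisons with KO_1E7 share its 3 libraries, and comparisons with parental share those of parental, so they are not independent of each other. The median log2 fold change of the 8 was 0.06, 0.01 and 0.16 in KO_1E7 against parental, KO_1E7 against CRISPR_1G2 and CRISPR_1G2 against parental, beside -0.03, -0.03 and 0.02 for all genes tested.

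Prrx1, the homeodomain factor of limb and craniofacial mesenchyme (ENSMUSG00000026586, minus strand of chromosome 1, 163245119 to 163313710 on GRCm38), was a rare transcript that was higher in clone 1E7. It had 25, 69 and 30 counts in KO_1E7 1, 2 and 3, 6, 8 and 8 in CRISPR_1G2 1, 2 and 3, and 2, 5 and 4 in parental 1, 2 and 3. As CPM this was 0.707, 1.31 and 0.895 in KO_1E7, 0.218, 0.252 and 0.244 in CRISPR_1G2, and 0.0546, 0.138 and 0.111 in parental. The 3 groups did not overlap, with KO_1E7 highest and parental lowest in every library. Prrx1 differed by a log2 fold change of 3.224 ± 0.44 (SE) in KO_1E7 against parental (edgeR adjusted p = 0.0119) and 2.01 ± 0.41 in KO_1E7 against CRISPR_1G2 (edgeR adjusted p = 0.0166). Between CRISPR_1G2 and parental it was 1.21 ± 0.47 and did not pass (edgeR adjusted p = 0.595). Summed over the libraries of a group and divided by their depth, the counts in KO_1E7 were 10.1 times those in parental (95% interval 5.44 to 20.7, counting error only) and 4.26 times those in CRISPR_1G2 (2.69 to 7.05). The call against parental was lost without KO_1E7 3 (edgeR adjusted p = 0.0760), and the call against CRISPR_1G2 was lost without KO_1E7 2 (0.0584), KO_1E7 3 (0.0650), CRISPR_1G2 1 (0.0634) or CRISPR_1G2 2 (0.0585).

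Twist2 (ENSMUSG00000007805, plus strand of chromosome 1, 91801461 to 91848028), the Twist gene best known from dermis and bone precursors, was higher in clone 1E7 and had its lowest counts in clone 1G2. It had 69, 195 and 95 counts in KO_1E7 1, 2 and 3, 1, 3 and 5 in CRISPR_1G2, and 10, 13 and 17 in parental. The CPM values were 1.95, 3.69 and 2.84 in KO_1E7, 0.0363, 0.0946 and 0.153 in CRISPR_1G2, and 0.273, 0.359 and 0.473 in parental. The groups did not overlap, and here CRISPR_1G2 was below parental, the reverse of their order for Prrx1. Twist2 had a log2 fold change of 2.93 ± 0.43 in KO_1E7 against parental (edgeR adjusted p = 0.0136) and 4.82 ± 0.50 in KO_1E7 against CRISPR_1G2 (edgeR adjusted p = 0.00185). In CRISPR_1G2 against parental it was -1.89 ± 0.51 and did not pass (edgeR adjusted p = 0.369). Summed in the same way, the Twist2 counts in KO_1E7 were 8.03 times those in parental (interval 5.78 to 11.4) and 30.2 times those in CRISPR_1G2 (15.7 to 66.5). The call against parental was lost without parental 1 (edgeR adjusted p = 0.0533) or KO_1E7 3 (0.0760), and the call against CRISPR_1G2 was kept when each of the 9 libraries was left out in turn.

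Groups that do not overlap were common in these data: 34.4% of all genes tested had none in KO_1E7 against parental, 38.6% in KO_1E7 against CRISPR_1G2 and 13.1% in CRISPR_1G2 against parental. Among dated libraries alone, Prrx1 differed by 2.80 and Twist2 by 2.89 on the log2 CPM scale (prior count 2) in KO_1E7 against parental. Between the single NSG-named libraries the differences were 2.51 for Prrx1 and 2.45 for Twist2, with no replicate. On chromosome 1, where both genes lie, the 1046 genes tested had a median log2 fold change of 0.05 in KO_1E7 against parental, with 26 called higher and 12 lower.

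Part of the Twist2 region is also annotated as a gene on the opposite strand. Gm29100, an antisense gene (minus strand of chromosome 1, 91798528 to 91802937), covers the start of Twist2, and 1477 of the 3174 exonic bases of Twist2 also belong to it. It had 133, 347 and 194 counts in KO_1E7 1, 2 and 3, 4, 9 and 13 in CRISPR_1G2, and 19, 24 and 19 in parental. Gm29100 had a log2 fold change of 3.23 ± 0.38 in KO_1E7 against parental (edgeR adjusted p = 0.00759, lost without KO_1E7 3 at 0.0528) and 4.26 ± 0.41 in KO_1E7 against CRISPR_1G2 (edgeR adjusted p = 0.00132). The library kit does not mark strand, so reads of Twist2 and of Gm29100 in the shared bases cannot be told apart.

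Twist1, the paralogue that drives mesoderm and neural crest programmes, was at the limit of detection. It had 1, 1 and 4 counts in KO_1E7 1, 2 and 3, 2, 3 and 3 in CRISPR_1G2, and 1, 1 and 0 in parental. Pooled, this was 0.0493 CPM in KO_1E7 (95% interval 0.0181 to 0.107), 0.0869 in CRISPR_1G2 (0.0375 to 0.171) and 0.0184 in parental (0.00223 to 0.0664), so the intervals overlapped and no difference was detectable at this depth. Snai2, the Slug gene, was as rare, with 1, 0 and 5 counts in KO_1E7, 4, 1 and 4 in CRISPR_1G2, and 4, 1 and 4 in parental. Its pooled level was 0.0493 CPM in KO_1E7 (0.0181 to 0.107), 0.0978 in CRISPR_1G2 (0.0447 to 0.186) and 0.0827 in parental (0.0378 to 0.157), again with intervals that overlapped.

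Snai1, the Snail gene (ENSMUSG00000042821, chromosome 2, 167538195 to 167542814), had far more counts than Snai2, and it passed in none of the 3 group comparisons. It stood at 17.9, 10.4 and 16.3 CPM in KO_1E7 1, 2 and 3, at 13.1, 12.04 and 12.9 in CRISPR_1G2, and at 10.6, 11.2 and 12.4 in parental. KO_1E7 1 and 3 were the highest of the 9 libraries and KO_1E7 2 the lowest, so the groups overlapped. Snai1 had a log2 fold change of 0.38 ± 0.21 in KO_1E7 against parental (edgeR adjusted p = 0.316), 0.23 ± 0.21 in KO_1E7 against CRISPR_1G2 (0.514) and 0.15 ± 0.21 in CRISPR_1G2 against parental (0.949). On chromosome 2, where Snai1, Zeb2 and Vim lie, the 1220 genes tested had a median of -0.19 in KO_1E7 against parental. There 0.492% were called higher and 4.43% lower. Against CRISPR_1G2 the median was -0.27, with 1.97% higher and 12.5% lower.

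Zeb1 stood at 12.9, 14.7 and 15.4 CPM in KO_1E7 1, 2 and 3, at 16.3, 14.8 and 24.4 in CRISPR_1G2, and at 15.9, 14.8 and 21.5 in parental. Its highest values were those of CRISPR_1G2 3 and parental 3, and the groups overlapped. Zeb1 had a log2 fold change of -0.28 ± 0.23 in KO_1E7 against parental (edgeR adjusted p = 0.493) and -0.37 ± 0.23 in KO_1E7 against CRISPR_1G2 (0.320). Zeb2 (ENSMUSG00000026872, minus strand of chromosome 2, 44983632 to 45117395) was the more abundant ZEB gene per kilobase of exon. It stood at 89.1, 116 and 95.7 CPM in KO_1E7 1, 2 and 3, at 68.3, 72.2 and 122 in CRISPR_1G2, and at 81.3, 61.8 and 156 in parental. Here too CRISPR_1G2 3 and parental 3 were the highest libraries. The log2 fold change of Zeb2 was 0.01 ± 0.35 in KO_1E7 against parental (edgeR adjusted p = 0.993) and 0.20 ± 0.35 in KO_1E7 against CRISPR_1G2 (0.755). Among dated libraries alone Zeb2 was higher in KO_1E7, by 0.52 against parental and by 0.53 against CRISPR_1G2 on the log2 CPM scale. Between the NSG-named libraries it was lower in KO_1E7, by -0.70 and -0.35. With parental 3 and CRISPR_1G2 3 left out, an alternative chosen after seeing the data, Zeb2 passed in KO_1E7 against CRISPR_1G2 (0.52 ± 0.15, edgeR adjusted p = 0.0349).

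Zeb2os, an antisense gene at the start of Zeb2 (plus strand of chromosome 2, 45111138 to 45114087), shares 467 exonic bases with it. It stood at 6.27, 3.81 and 4.84 CPM in KO_1E7 1, 2 and 3, at 0.254, 0.504 and 1.04 in CRISPR_1G2, and at 1.34, 0.856 and 2.78 in parental. All 3 KO_1E7 libraries were above all others. The log2 fold change of Zeb2os was 3.03 ± 0.59 in KO_1E7 against CRISPR_1G2 (edgeR adjusted p = 0.0143), a call lost without KO_1E7 1, KO_1E7 3 or CRISPR_1G2 2 (at most 0.0581). Against parental it was 1.58 ± 0.54 and did not pass (edgeR adjusted p = 0.125). Zeb2os had 822 counts over all libraries and Zeb2 had 31455. How reads in the shared bases were assigned is not known, and their part in the Zeb2 level was not tested.

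Cdh2, the N-cadherin gene, was rare in every group and lowest in KO_1E7. It had 13, 15 and 20 counts in KO_1E7 1, 2 and 3, 20, 43 and 51 in CRISPR_1G2, and 29, 31 and 33 in parental, which is 0.367, 0.284 and 0.597 CPM in KO_1E7, 0.726, 1.36 and 1.56 in CRISPR_1G2, and 0.792, 0.856 and 0.917 in parental. KO_1E7 overlapped with neither of the other groups, whose libraries overlapped with each other. Cdh2 had a log2 fold change of -1.55 ± 0.41 in KO_1E7 against CRISPR_1G2 (edgeR adjusted p = 0.0391) and -1.05 ± 0.40 in KO_1E7 against parental, where it did not pass (edgeR adjusted p = 0.161). The call against CRISPR_1G2 was kept without parental 3 or CRISPR_1G2 1 and was lost without any 1 of the other 7 libraries, namely parental 1 (edgeR adjusted p = 0.0673), parental 2 (0.0577), KO_1E7 1 (0.138), KO_1E7 2 (0.111), KO_1E7 3 (0.0666), CRISPR_1G2 2 (0.101) and CRISPR_1G2 3 (0.0784). It was also lost with no filter on low counts (0.0709) and with only the 2 groups in the fit (0.0723).

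Cdh11 (ENSMUSG00000031673) had 25, 20 and 23 counts in KO_1E7 1, 2 and 3, 14, 22 and 26 in CRISPR_1G2, and 15, 12 and 32 in parental. The groups overlapped, and its log2 fold change was 0.11 ± 0.46 in KO_1E7 against parental (edgeR adjusted p = 0.918) and -0.19 ± 0.46 in KO_1E7 against CRISPR_1G2 (0.828). Cdh11 lies on chromosome 8, whose 892 genes tested had a median log2 fold change of 0.31 in KO_1E7 against parental.

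Vim (ENSMUSG00000026728, plus strand of chromosome 2, 13573927 to 13582826) was abundant in every library, and its libraries spread widely within each group. It stood at 1123, 1887 and 925 CPM in KO_1E7 1, 2 and 3, at 2314, 2851 and 541 in CRISPR_1G2, and at 1930, 2529 and 617 in parental. In each group the NSG-named library was the lowest, and in KO_1E7 the first library came close to it. Vim had a log2 fold change of -0.37 ± 0.64 in KO_1E7 against parental (edgeR adjusted p = 0.773), -0.54 ± 0.64 in KO_1E7 against CRISPR_1G2 (0.627) and 0.17 ± 0.64 in CRISPR_1G2 against parental (0.986). Among dated libraries alone Vim was lower in KO_1E7, by -0.60 against parental and by -0.82 against CRISPR_1G2 on the log2 CPM scale, and between the NSG-named libraries it was higher, by 0.58 and 0.77.

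**Figure D3:**
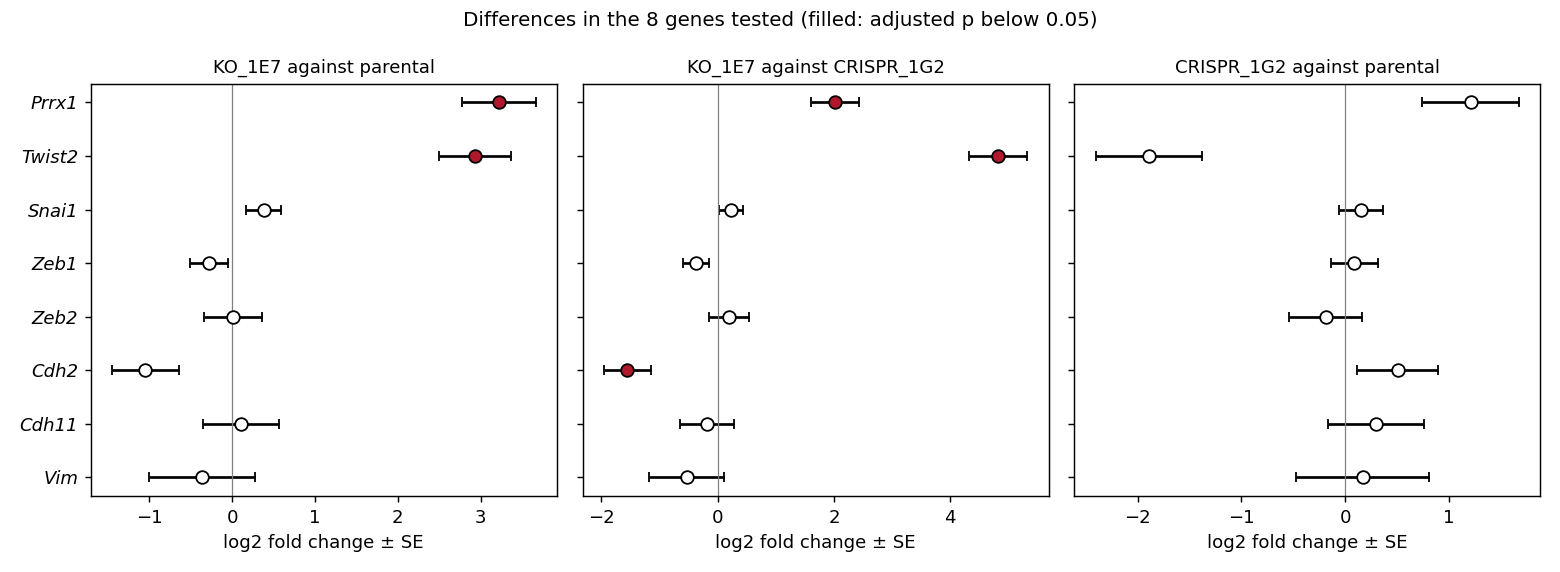
Log2 fold changes ± SE (horizontal axis, scaled separately for each comparison) of the 8 genes tested in 3 comparisons from 1 edgeR fit of 9 libraries. Filled points have an adjusted p below 0.05: Prrx1 and Twist2 in both comparisons with KO_1E7, and Cdh2 in KO_1E7 against CRISPR_1G2.

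The word NSG in the file names was set beside the groups in a further edgeR fit, a comparison added after seeing the data. Between NSG-named and dated libraries 0 genes passed in edgeR, so the share called was 0%, while 5246 (33.3%) had an unadjusted p below 0.05. DESeq2 called 3048 genes (19.3%), among them 3 of the 8 EMT genes. Vim was lower in NSG-named libraries in every group, with NSG-named minus dated differences of -0.65 in KO_1E7, -2.25 in CRISPR_1G2 and -1.84 in parental on the log2 CPM scale. Its log2 fold change was -1.56 ± 0.31 (edgeR adjusted p = 0.0772, DESeq2 adjusted p = 1.72e-05), and the NSG-named and dated libraries did not overlap, as for 5.96% of all genes tested. Without KO_1E7 1 or KO_1E7 3 Vim passed in edgeR as well (adjusted p = 0.0251 and 0.000880). Zeb1 (0.44 ± 0.13, edgeR adjusted p = 0.0824, DESeq2 adjusted p = 0.0232) and Zeb2 (0.64 ± 0.21, edgeR adjusted p = 0.0928, DESeq2 adjusted p = 0.0330) had positive estimates, and both passed in edgeR without KO_1E7 3 (adjusted p = 0.00875 and 0.00140). For Zeb2 the NSG-named minus dated difference was -0.09 in KO_1E7, 0.80 in CRISPR_1G2 and 1.14 in parental. A test of whether this difference itself varied between the groups did not pass for Zeb2 (KO_1E7 minus parental -1.22 ± 0.30, edgeR adjusted p = 0.0860) or for Vim (KO_1E7 minus CRISPR_1G2 1.55 ± 0.47, edgeR adjusted p = 0.0856). The word is carried by 1 library per group, and in CRISPR_1G2 and parental that library is the one that stood apart, so there the word and the standing apart cannot be told apart. In KO_1E7 the NSG-named library did not stand apart: its chi-square per gene was 18.3 against KO_1E7 1 and 49.5 against KO_1E7 2, where the dated KO_1E7 1 and 2 gave 60.9.

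**Figure D4:**
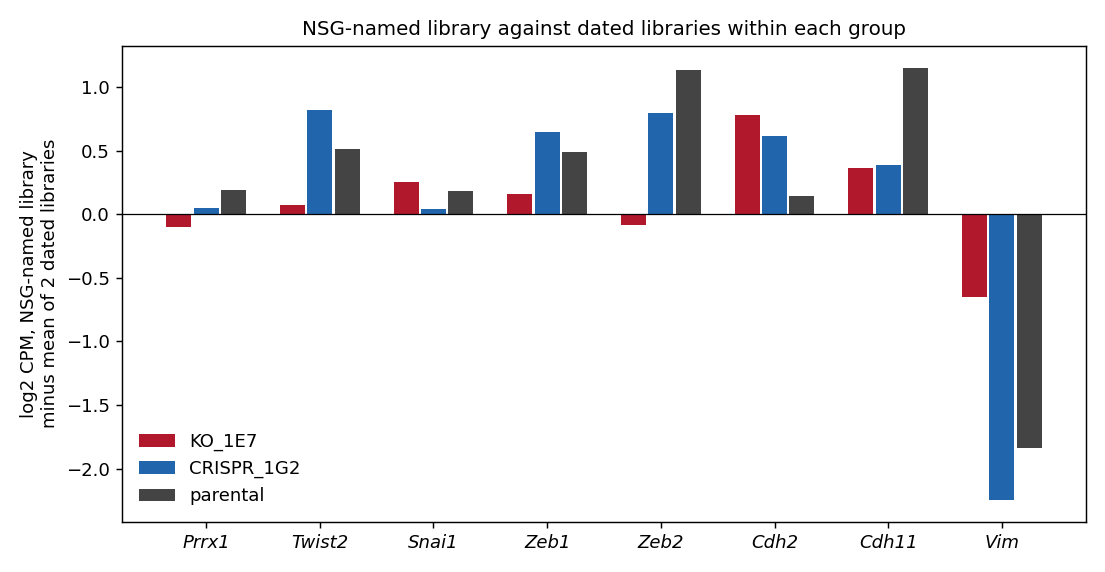
Difference in log2 CPM (prior count 2) between the NSG-named library and the mean of the 2 dated libraries of its group (vertical axis) for the 8 genes tested, 1 bar per group. Vim is below 0 in all 3 groups, and Zeb2 is above 0 in CRISPR_1G2 and parental and near 0 in KO_1E7.

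The genes that these factors are known to repress in epithelial cells were counted as a list of 28, of which 25 were tested. Against parental, KO_1E7 had 0 of them higher and 2 lower, with a median log2 fold change of -0.50 against -0.03 for all genes tested, of which 2.87% were called lower. DESeq2 called 6 of the 25, and 6 had an unadjusted p below 0.05 in edgeR. The 2 edgeR calls were the tight junction gene Cldn7 and the simple keratin gene Krt7. In KO_1E7 against CRISPR_1G2 0 were higher and 9 lower, with a median of -0.85 against -0.03 for all genes, of which 7.03% were called lower. Here DESeq2 called 11, and 12 had an unadjusted p below 0.05. The 9 were Cldn7 (-2.07), Krt7 (-3.23), the adhesion gene Epcam (-2.83), the splicing regulator gene Esrp1 (-3.35), the epithelial transcription factor gene Ovol1 (-3.48), the tight junction gene Ocln (-1.55), the plakophilin genes Pkp2 (-1.66) and Pkp3 (-1.56), and the polarity gene Llgl2 (-0.54). Cldn7 and Krt7 were kept as calls against CRISPR_1G2 when each of the 9 libraries was left out in turn, and the other 7 were each lost in 2 to 7 of these 9 fits. Within KO_1E7, library 2 stood above libraries 1 and 3 for Esrp1 (0.707, 5.87 and 0.687 CPM in KO_1E7 1, 2 and 3). The same held for Epcam (1.02, 3.43 and 0.746 CPM) and for Ovol1, which rested on 2, 26 and 3 counts. The 9 genes were not compared with the other genes of their chromosomes, which differed. Chromosomes 16 and 8, where Snai2 and Cdh11 lie, are examples of this and not a reference for the 9 genes. On chromosome 16, 27.2% of the genes tested were called lower in KO_1E7 against CRISPR_1G2, and on chromosome 8 2.13% were. Against parental, Cldn7 was lost without parental 1, KO_1E7 1 or KO_1E7 3 (at most 0.0933), and Krt7 without any 1 of 6 libraries (at most 0.136). Between CRISPR_1G2 and parental 0 of the 25 passed in edgeR, 4 had an unadjusted p below 0.05 and DESeq2 called 1. The median there was 0.43 against 0.02 for all genes, and 19 of the 25 estimates were positive. In CRISPR_1G2 against parental the estimates of Ocln, Pkp3 and Llgl2 were 1.46, 1.06 and 0.42. In KO_1E7 against parental they were smaller in size, at -0.09, -0.50 and -0.12. For the others of the 9 the estimate in KO_1E7 against parental was the larger in size.

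Cdh1, the E-cadherin gene and textbook target of these repressors, had positive estimates in both comparisons with KO_1E7, unlike the 9 genes called. It stood at 26.6, 47.1 and 15.0 CPM in KO_1E7 1, 2 and 3, at 11.6, 16.3 and 5.83 in CRISPR_1G2, and at 21.8, 14.7 and 10.1 in parental. KO_1E7 2 was the highest library and CRISPR_1G2 3 the lowest, and KO_1E7 overlapped with both other groups. The log2 fold change of Cdh1 was 0.93 ± 0.49 in KO_1E7 against parental (edgeR adjusted p = 0.292) and 1.40 ± 0.50 in KO_1E7 against CRISPR_1G2 (0.102), so neither difference passed. Cdh1 was not compared with the other genes of its chromosome, and chromosomes differed in KO_1E7. The median log2 fold change on chromosome 8 was 0.31 against parental, with 8.52% of genes called higher and 1.01% lower. Against CRISPR_1G2 the median there was 0.34, with 15.4% called higher and 2.13% lower.

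Of 25 mesenchymal matrix and motility genes, 20 were tested. In KO_1E7 against parental the gene Sparc, which encodes a secreted collagen-binding protein, was the 1 called, higher by 0.84 ± 0.11 (edgeR adjusted p = 0.00939, lost without KO_1E7 1 or KO_1E7 3 at up to 0.0760), and 0 were lower. The median was 0.21 against -0.03 for all genes. In KO_1E7 against CRISPR_1G2 5 were higher and 3 lower, with a median of 0.08, where 5.71% of all genes were called higher and 7.03% lower. The higher ones were the tenascin C gene Tnc (6.29 ± 0.40), the collagen gene Col1a2 (3.67 ± 1.02), the PDGF receptor gene Pdgfrb (1.83 ± 0.32), Sparc (1.17 ± 0.11) and the receptor tyrosine kinase gene Axl (1.12 ± 0.12). The lower ones were the neural adhesion gene Ncam1 (-1.61 ± 0.39) and the collagen genes Col1a1 (-1.59 ± 0.43) and Col5a1 (-0.86 ± 0.18). The estimates for the chains of type I collagen thus had opposite signs, but Col1a2 was uneven within KO_1E7. It stood at 6.47, 0.872 and 1.64 CPM in KO_1E7 1, 2 and 3. In CRISPR_1G2 it stood at 0.126 to 0.327 CPM, and in parental at 0.164 to 1.83 CPM, a range that holds KO_1E7 2 and 3. Tnc, Sparc and Axl were kept when each of the 9 libraries was left out in turn. Pdgfrb was lost without KO_1E7 3 (0.0506), Col5a1 without KO_1E7 1 or KO_1E7 3 (at most 0.0990), Col1a2 without any 1 of 6 libraries (at most 0.168), Ncam1 without any 1 of 7 (at most 0.128) and Col1a1 in all 9 cases.

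In CRISPR_1G2 against parental Tnc and Axl were the 2 called of the same list, both lower, and 0 were higher. Over all genes tested, 0 were called higher and 40 (0.254%) lower in this comparison. Tnc averaged 2.07 ± 0.65 CPM in CRISPR_1G2 against 130 ± 51.7 CPM in parental, a log2 fold change of -5.96 ± 0.40 (edgeR adjusted p = 0.000390). In KO_1E7 it averaged 162 ± 28.6 CPM. Axl averaged 226 ± 16.4 CPM in CRISPR_1G2 and 459 ± 45.1 CPM in parental (-1.02 ± 0.12, edgeR adjusted p = 0.0129), a call that was lost without KO_1E7 1, KO_1E7 3, CRISPR_1G2 1 or CRISPR_1G2 2 (at most 0.104). In KO_1E7 against parental Tnc had a log2 fold change of 0.32 ± 0.32 (edgeR adjusted p = 0.583) and Axl of 0.10 ± 0.12 (0.671), and neither passed.

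**Figure D5:**
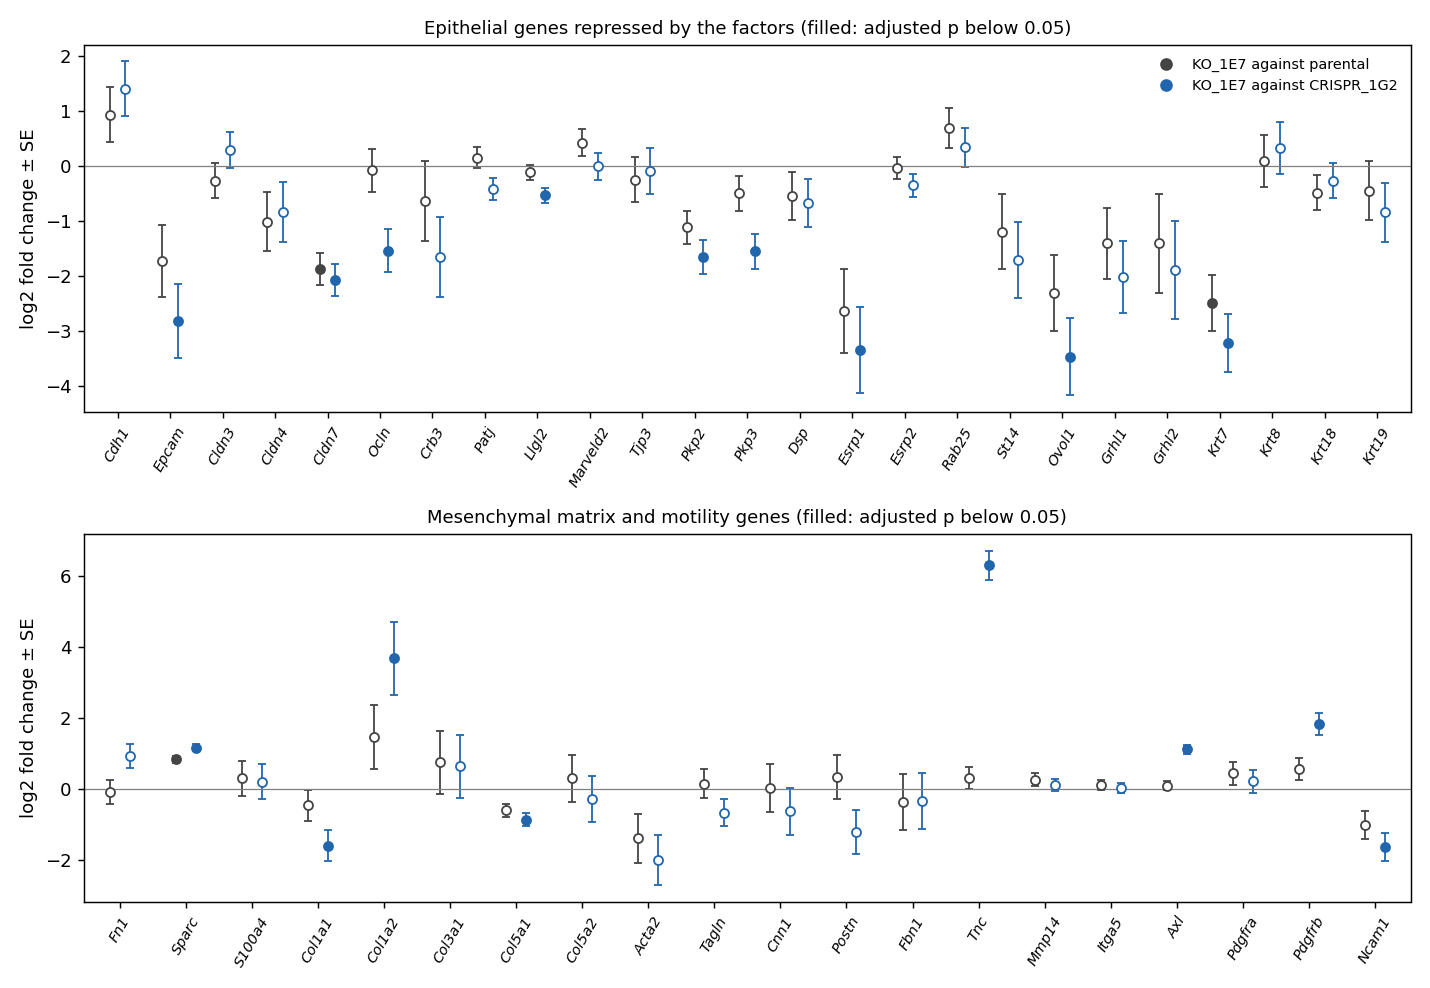
Log2 fold changes ± SE (vertical axis) of the tested genes in the epithelial list (above) and the mesenchymal list (below), in KO_1E7 against parental (grey) and against CRISPR_1G2 (blue). Filled points have an adjusted p below 0.05. In the epithelial list 2 and 9 genes are filled, all below 0, with Cdh1 above 0 and unfilled, and in the mesenchymal list 1 and 8 are filled.

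The counts of calls among partners and regulators of these factors are given beside the 5.42% of all genes that edgeR called in KO_1E7 against parental and the 12.7% in KO_1E7 against CRISPR_1G2. Of 9 genes for E-proteins, with which Twist proteins pair, for their Id inhibitors and for the related Hand factors, 6 were tested and 0 passed in edgeR in any of the 3 group comparisons. In KO_1E7 against parental 1 of the 6 had an unadjusted p below 0.05 and DESeq2 called 1, in KO_1E7 against CRISPR_1G2 these numbers were 3 and 1, and in CRISPR_1G2 against parental both were 0. Of 21 corepressor and protein stability genes 20 were tested. Against parental, KO_1E7 had 0 edgeR calls among them, 3 unadjusted p-values below 0.05 and 1 DESeq2 call. In KO_1E7 against CRISPR_1G2 2 were lower: Gsk3b (-0.92 ± 0.22, edgeR adjusted p = 0.0291), which encodes a kinase that marks Snail for degradation, and the corepressor gene Ctbp2 (-0.77 ± 0.20, edgeR adjusted p = 0.0385). Gsk3b was lost without any 1 of 3 libraries (parental 1, KO_1E7 1 or KO_1E7 3, at most 0.131) and Ctbp2 without any 1 of 6 (at most 0.164). Neither gene was compared with the other genes of its chromosome. Whole chromosomes differed in this comparison, and chromosome 16, where Snai2 lies, is given as an example rather than as a reference for both genes. Its median was -0.52 in KO_1E7 against CRISPR_1G2, with 27.2% of its genes called lower and 2.83% higher.

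Among 21 other transcription factors linked to EMT, 11 were tested. In KO_1E7 against parental 0 passed in edgeR, 3 had an unadjusted p below 0.05 and DESeq2 called 1. In KO_1E7 against CRISPR_1G2 the bone and mesenchyme factor gene Runx2 was higher (0.84 ± 0.19, edgeR adjusted p = 0.0263), at 80.5 ± 18.7 CPM in KO_1E7 against 45.0 ± 7.42 CPM in CRISPR_1G2. That call was lost without any 1 of 5 libraries, all of KO_1E7 and CRISPR_1G2 (at most 0.0655). All 13 genes of TGF-beta signal inputs, the pathway best known for inducing EMT, were tested. Tgfbr3, a coreceptor gene, was higher (2.75 ± 0.53) and the growth factor gene Bmp4 lower (-2.64 ± 0.60) in KO_1E7 against CRISPR_1G2, calls lost without KO_1E7 1 or KO_1E7 3 and for Tgfbr3 also without CRISPR_1G2 1 (at most 0.108). Against parental 0 passed in edgeR, 5 had an unadjusted p below 0.05 and DESeq2 called 4.

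Of 15 other cadherin and catenin genes 6 were tested. Of these, edgeR called 0 in both comparisons with KO_1E7. Unadjusted p-values below 0.05 and DESeq2 calls numbered 1 each against parental and 2 each against CRISPR_1G2. Of 13 genes of other intermediate filaments and their linkers 8 were tested. Nes, which encodes nestin, a filament of progenitor cells that copolymerizes with vimentin, was lower in both comparisons with KO_1E7. It averaged 4.30 ± 1.38 CPM in KO_1E7, 23.3 ± 4.55 CPM in CRISPR_1G2 and 11.6 ± 1.89 CPM in parental. The log2 fold change was -1.42 ± 0.27 against parental (edgeR adjusted p = 0.0255, lost without any 1 of 5 libraries at up to 0.127) and -2.43 ± 0.28 against CRISPR_1G2 (edgeR adjusted p = 0.00255). In CRISPR_1G2 against parental edgeR called 0 genes of the partner, corepressor, other factor, TGF-beta, cadherin and filament lists, where unadjusted p-values below 0.05 numbered 0, 0, 1, 1, 0 and 1, and DESeq2 called 1 filament gene.

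For the 3 genes with the widest range, the tested genes with the most similar profile were named, by the root-mean-square (RMS) difference of centred log2 CPM over the 9 libraries. For Twist2, whose range was 5.35, they were its antisense neighbour Gm29100 (RMS difference 0.29), the bile acid enzyme gene Cyp39a1 (0.38) and Gm7103 (0.49). Gm29100 shares 1477 of the 3174 exonic bases of Twist2, where reads cannot be told apart, so its profile may not be independent of that of Twist2. Cyp39a1 averaged 22.6 CPM in KO_1E7, 1.02 in CRISPR_1G2 and 2.86 in parental. For Prrx1, with a range of 3.63, they were the beta-arrestin gene Arrb1 (0.28), Apold1 (0.36) and the Wnt inhibitor gene Notum (0.41). Arrb1 averaged 17.5 CPM in KO_1E7, 4.53 in CRISPR_1G2 and 2.47 in parental. For Vim, with a range of 2.40, they were the cell cycle factor gene E2f8 (0.22), Emp1 (0.24) and the kinase gene Pkn3 (0.25). E2f8 stood at 84.9 CPM in KO_1E7 3, 41.2 in CRISPR_1G2 3 and 37.4 in parental 3, the NSG-named libraries, against 77.6 to 228 in the 6 dated libraries.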

How the data were processed

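The authors deposited raw read counts per gene for 9 libraries, in a table per sample and in 1 series table that differed from these in 0 cells. The submitters' processing notes name STAR 2.5.2b, GRCm38 and featureCounts (Subread 1.5.2). No source used here gives the annotation release or the strand setting. The 92 spike-ins were left out. Counts were tested in R 4.3.3 with the robust quasi-likelihood test of edgeR 4.0.16 on TMM-scaled libraries, with all groups in 1 fit and p-values adjusted by Benjamini-Hochberg over the 15766 genes that passed edgeR's filter by group. Same-numbered libraries of CRISPR_1G2 and parental deviated together from their group means (correlations 0.24, 0.47 and 0.65 over genes), all above 0.1, the mark set for reading numbers as pairs. The file-name dates go against that pairing: CRISPR_1G2 1 shares its date with parental 2, with which it correlated at 0.54. All pairs of dated libraries of these groups correlated positively whatever their numbers (0.14 to 0.54). All pairs of a dated and an NSG-named library correlated negatively. Deviations from a group mean sum to 0, and library 3 stood apart in both groups, so these correlations cannot decide the pairing. The pairing is therefore uncertain. DESeq2 1.42.0, RLE size factors, a fit that is not robust, no filter, 2 groups only, a replicate block, a term for the word NSG, dated libraries only and leaving out each library were alternatives. The procedure was run on simulated data with the same dispersion for all genes and no library that stood apart. These data differ from that, so the run does not show how the procedure performs here. CPM uses TMM-scaled library sizes, and per kilobase values use the deposited exon lengths. With 3 libraries a group, exact permutation p-values of a single gene reach 0.1 at best, so none is given. Intervals are exact (95%) and reflect counting error alone. The members and lists were chosen with earlier results of these data known. All 10 members are described, each list gene called between groups is named, and Cdh1 is given whatever its values. RefSeq promoter windows were found for 6 of the 10 genes, and those of the 2 that rose are printed. A corepressor symbol and an immune marker symbol had no row in the table.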

Additional observations from a re-analysis of the deposited data

Results flagged for a closer look

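Both clones were compared with the same parental line, and the difference between their differences from it is the comparison KO_1E7 against CRISPR_1G2. It passed for 3 of the 8 genes tested. For Twist2 the difference was 4.82 on the log2 scale (edgeR adjusted p = 0.00185): KO_1E7 passed as higher than parental, and CRISPR_1G2 against parental, at -1.89, did not pass (edgeR adjusted p = 0.369). For Prrx1 it was 2.01 (edgeR adjusted p = 0.0166), which was lost without any 1 of 4 libraries: KO_1E7 passed as higher than parental, and CRISPR_1G2 against parental, at 1.21, did not pass (edgeR adjusted p = 0.595). For Cdh2 it was -1.55 (edgeR adjusted p = 0.0391), which was lost without any 1 of 7 libraries: the estimates against parental were -1.05 in KO_1E7 (edgeR adjusted p = 0.161) and 0.51 in CRISPR_1G2 (0.862), and neither passed.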

How the results depend on the processing

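Of the calls among the 10 genes, Twist2 in KO_1E7 against CRISPR_1G2 passed in the main analysis and in all 18 alternatives (log2 fold change 4.48 to 5.35), and the calls of Prrx1, Twist2 and Cdh2 that were lost are given beside their values. Counts over all genes moved more, and the cause was not tested. In KO_1E7 against parental 854 genes were called, 2358 by DESeq2, 546 without a filter on low counts, 1298 with a replicate block, 2060 with a term for the word NSG, 1737 among dated libraries alone and 3330 without parental 3 and CRISPR_1G2 3 (added after seeing the data). In KO_1E7 against CRISPR_1G2 the count was 2010, against 3374 by DESeq2, 3330 with the NSG term, 3111 among dated libraries and 4615 without parental 3 and CRISPR_1G2 3. For CRISPR_1G2 against parental it was 40, against 235 by DESeq2 and 16 with only the 2 groups in the fit. Between NSG-named and dated libraries it was 0, against 3048 by DESeq2 (3 of the 8 members) and 1584 without a filter. Leaving out 1 library gave 24 (without KO_1E7 3) to 1998 (without CRISPR_1G2 3) genes and 0 to 2 members in KO_1E7 against parental, 453 (without KO_1E7 3) to 2332 (without parental 3) and 1 to 3 members in KO_1E7 against CRISPR_1G2, 15 (without CRISPR_1G2 1) to 71 (without parental 1) and 0 members in CRISPR_1G2 against parental, and 0 to 6248 (without KO_1E7 3) and 0 to 3 members between NSG-named and dated libraries.

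Signs that turned belonged to estimates that had not passed. Zeb2 in KO_1E7 against parental was -0.0039 with only those 2 groups in the fit. With 1 library left out, the log2 fold change ranged from -0.24 to 0.50 for Zeb2, from -0.14 to 0.67 for Cdh11 and from -0.75 to 0.045 for Vim in KO_1E7 against parental, and from -0.34 to 0.066 for Cdh11 in KO_1E7 against CRISPR_1G2. For CRISPR_1G2 against parental it ranged from -0.16 to 0.27 for Zeb1, from -0.50 to 0.29 for Zeb2 and from -0.24 to 0.61 for Vim, and for Prrx1 between NSG-named and dated libraries from -0.17 to 0.19. The replicate numbers did not pair KO_1E7 with the other groups: same-numbered libraries' deviations from their group means correlated at -0.05 to 0.15, and 3 of 6 libraries in KO_1E7 and parental, and 4 of 6 in KO_1E7 and CRISPR_1G2, correlated best with their own number, as did 4 of 6 in CRISPR_1G2 and parental, where pairing is uncertain. The replicate block changed no call among the members in any group comparison, and gave 37 genes in CRISPR_1G2 against parental. Twist1, Snai2, Prrx1, Cdh2 and Cdh11 rest on few counts, which limits what these depths can show.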
